A study of Sorghum bicolor with 34 samples.

Results

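Phospholipase D zeta is represented here by 4 transcripts from 3 genes, chosen out of 47110 transcripts quantified in every library. They are KXG32384 of the gene SORBI_3003G147000, OQU77834 of SORBI_3009G109925, and OQU77835 and OQU77836, which both belong to SORBI_3009G110000. Whether the family has other transcripts among the 47110 was not checked. KXG32384, OQU77834 and OQU77836 were chosen because the study's homology table matches them to the Arabidopsis gene AT3G05630, and OQU77835 because the study annotates it with a Phox homologous domain. OQU77835 also stands in a list that the study drew up from these same samples, so that its response is not independent of that choice. The name of the family rests on these matches, and the enzymes themselves were not assayed.

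The seedlings were of the inbred line BTx623, grown hydroponically and sampled at day 10 in limiting phosphorus (LP, 2.5 μM phosphate) or sufficient phosphorus (SP, 45 μM phosphate). Each phosphorus level has 2 RNA-seq libraries of the seminal apex, which is the tip of the seminal root and is labelled root apex, 2 of the elongation zone just behind it, labelled as the intermediate root, and 1 of the lateral apex, which is the tip of lateral roots and is labelled as lateral root. The methods state that 10 plants made up a biological replicate, that each segment was 2 cm long, and that all seedlings spent their first day in SP solution. They also state that the elongation zone was cut from the same seminal roots as the seminal apex. One LP library of the seminal apex, replicate 2, carries a tissue label of whole root beside a title of root apex. It was kept with the seminal apex, and its log2(CPM + 1) values correlated at 0.937 to 0.949 with the other seminal apex libraries and at 0.856 to 0.910 with the remaining libraries, across transcripts of each library. A segment of root holds many cell types, so that fewer cells of a type and less RNA per cell cannot be told apart in any value given here.

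Phospholipases D cut the head group from membrane phospholipids and leave phosphatidic acid, which serves as a signal and as a source of diacylglycerol for other lipids. The zeta class differs from the other plant classes in carrying a Phox homologous and a pleckstrin homologous domain in place of the calcium-binding C2 domain. In Arabidopsis, AT3G05630 is known for its induction in phosphate-starved roots, where it takes part in the breakdown of phospholipids whose place in the membrane is taken by galactolipids and sulfolipids, and in root growth under low phosphate.

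Total estimated counts were 10114584 to 19067049 per library. A pair of libraries stood apart from the others. The lateral apex SP library had 340 transcripts and elongation zone LP replicate 2 had 165 transcripts at 0 counts that reached at least 1 CPM (counts scaled to library size by TMM, a trimmed mean of ratios) in each of the other 9 libraries, against 2 to 21 such transcripts in the remaining libraries. Fold changes of the 4 transcripts that move with elongation zone LP replicate 2 are given below without it as well. Lateral apex SP is the only library of its group, so that comparisons of LP with SP in the lateral apex have no value without it.

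Levels of different transcripts were compared in TPM, a share of all transcripts that is corrected for transcript length. OQU77834 and KXG32384 were the most abundant, with mean levels of 2.5 and 2.4 TPM over the 10 libraries. OQU77836 had a mean level of 1.56 TPM and OQU77835 of 0.111 TPM. Among all 47110 transcripts, those not detected included, these means lay at the percentiles 60.8, 60.3, 55.5 and 29.0. These percentiles do not give the place among expressed transcripts. OQU77835 was barely detected, with 0 to 14.6 estimated counts per library. OQU77834 had the highest level of the 4 in 6 libraries and KXG32384 in the other 4. OQU77835 was the lowest in 9 libraries, and in elongation zone LP replicate 2 it was KXG32384, at 0. In seminal apex LP, elongation zone LP and elongation zone SP the ranges of KXG32384 and OQU77834 overlapped, so that the order of this pair did not exceed the spread between replicates there. In seminal apex SP both libraries had more KXG32384 than either had OQU77834.

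**Figure D1:**
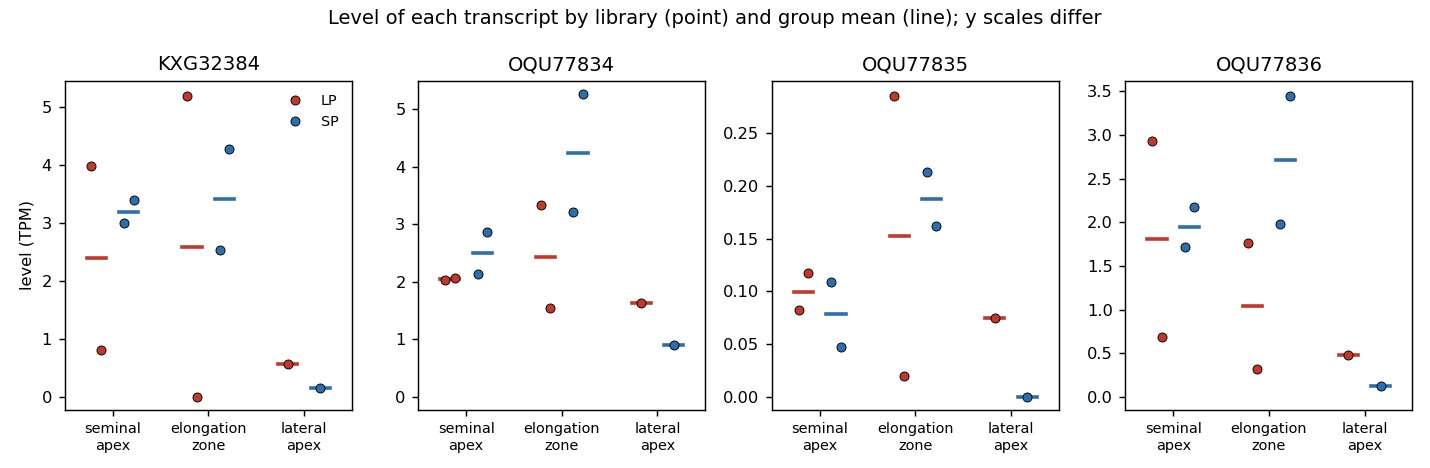
Level of each transcript in TPM (y axis, on a scale of its own in each panel) by root region (x axis), with LP libraries in red left of SP libraries in blue. Points are single libraries and short lines are group means. KXG32384 spans 0 to 5.20 TPM within elongation zone LP, and lateral apex SP has the lowest level of OQU77834, OQU77835 and OQU77836.

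OQU77834 had 77 counts or more in every library, the highest such minimum of the 4 transcripts. In the seminal apex it had levels of 2.03 and 2.07 TPM in LP libraries, against 2.14 and 2.87 TPM in SP libraries. Elongation zone levels were 3.33 and 1.54 TPM in LP, against 3.22 and 5.27 TPM in SP. The lateral LP library had 1.63 TPM and the lateral SP library 0.912 TPM. In TPM the LP libraries lay below both SP libraries in the seminal apex by a small margin, but in CPM, the scale of the tests, they overlapped, with 7.67 and 10.1 CPM in LP against 8.30 and 10.8 CPM in SP. The groups overlapped in the elongation zone, and the lateral apex ran the other way. The log2 fold change of LP over SP was -0.10 ± 0.43 (SE) in the seminal apex, -0.58 ± 0.43 in the elongation zone and 0.36 ± 0.61 for the lateral apex. In the same order of regions, the adjusted p in edgeR's quasi-likelihood test was 1, 0.549 and 0.802. The elongation zone value was -0.30 ± 0.46 without LP replicate 2 of that zone and -0.98 ± 0.48 without LP replicate 1. It was -0.97 ± 0.49 without SP replicate 1 and -0.14 ± 0.52 without SP replicate 2.

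KXG32384 had levels of 3.99 and 0.815 TPM in seminal apex LP libraries, against 3.0 and 3.4 TPM in seminal apex SP libraries. Its elongation zone levels were 5.20 and 0 TPM in LP, against 2.54 and 4.29 TPM in SP. The lateral libraries had 0.568 TPM in LP and 0.165 TPM in SP. In both regions with replicates the SP values fell between the 2 LP values, so that the groups overlapped completely. The spread within LP groups was large for this transcriptome. On the scale of log2(CPM + 0.5), the replicates of seminal apex LP differed by 1.74, a gap wider than that of 94.4% of the 24878 transcripts with a mean of at least 1 CPM, and those of elongation zone LP by 4.51, wider than for 98.5%. The corresponding gap was 0.130 in seminal apex SP (the 29.5th percentile) and 0.801 in elongation zone SP (the 86.9th percentile).

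The log2 fold change of KXG32384 was -0.36 ± 1.65 (SE) in the seminal apex, -0.34 ± 1.64 in the elongation zone and 1.35 ± 2.53 for the lateral apex, and the adjusted p by edgeR was 1, 0.943 and 0.833 in these regions. The elongation zone value turned on which LP library was kept. Without elongation zone LP replicate 2, where KXG32384 is at 0, it was 0.66 ± 0.77. Without elongation zone LP replicate 1 it was -9.76 ± 1.81. That fit compares 1 library at 0 counts with the 2 SP libraries, and the LP library was assumed to vary like the other groups. The 2 lateral libraries had 28.4 counts in LP and 9.45 counts in SP. The ratio of their rounded counts, scaled to library size, was 2.56 (95% counting interval 1.17 to 6.16), which compares these libraries and not the conditions.

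SORBI_3009G110000 gave both remaining transcripts, OQU77836 with a length of 1440 bases and OQU77835 with 3933 bases. OQU77836 had levels of 2.93 and 0.687 TPM in seminal apex LP libraries, against 1.72 and 2.17 TPM in SP libraries. Levels in the elongation zone were 1.77 and 0.327 TPM in LP, against 1.98 and 3.45 TPM in SP. The lateral apex had 0.483 TPM in LP and 0.132 TPM in SP. Both LP libraries of the elongation zone were below both SP libraries, and the groups overlapped in the seminal apex. The log2 fold change was -0.030 ± 0.93 (SE) in the seminal apex, -1.23 ± 0.94 in the elongation zone and 1.43 ± 1.46 for the lateral apex, with edgeR adjusted p of 1, 0.560 and 0.620. Leaving out 1 library moved the elongation zone value of OQU77836 to -0.59 ± 0.90 without LP replicate 2 of that zone. It was -2.53 ± 1.05 without LP replicate 1 and -0.71 ± 1.25 without SP replicate 2. The lateral value rested on 9.60 counts in LP and 3 counts in SP. The ratio of the rounded counts, scaled to library size, was 2.74 with a 95% counting interval of 0.706 to 15.5.

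OQU77835 had levels of 0.0827 and 0.117 TPM in seminal apex LP libraries, against 0.109 and 0.0474 TPM in SP libraries. Elongation zone libraries had 0.285 and 0.0196 TPM in LP, against 0.213 and 0.162 TPM in SP. It had 0.0748 TPM, from 4.40 counts, in lateral LP and 0 in lateral SP. The LP and SP groups overlapped in both regions with replicates. The log2 fold change was 0.43 ± 1.51 (SE) in the seminal apex and -0.19 ± 1.46 in the elongation zone, with an edgeR adjusted p of 1 in each. The elongation zone value was 0.66 ± 1.18 without LP replicate 2 of that zone. With the lateral apex SP library set at the floor of 3 counts, the ratio of LP to SP was 1.10, which leaves out the counting error of LP. The counting interval of the ratio began at 0.543, so that no rise in LP was shown. The adjusted p by edgeR was 0.393. A difference of this transcript between lateral libraries was not detectable at this depth.

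Reads that fit both transcripts of SORBI_3009G110000 were divided between them by kallisto, and the counts show it. OQU77835 alone had a whole count in 1 library, the lateral apex SP library where it is 0, while OQU77835 plus OQU77836 came to a whole number within 0.001 in 9 of the 10 libraries. The sum was therefore tested as well. It held 31.0 and 20.0 counts in seminal apex LP, against 31.0 and 41.0 in SP. Elongation zone LP libraries held 45 and 7 counts, against 27 and 74.4 in SP. Of the lateral libraries, LP held 14 counts and SP held 3. The log2 fold change of the sum was 0.030 ± 0.87 (SE) in the seminal apex, -0.99 ± 0.88 in the elongation zone and 1.91 ± 1.39 for the lateral apex, with edgeR adjusted p of 1, 0.612 and 0.476. Summing the transcripts changed no call.

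OQU77835 took a mean of 24.1% of the counts of SORBI_3009G110000 in LP libraries and 11.7% in SP libraries (n = 5 each). In the seminal apex the share was 7.78% and 33.7% in LP libraries, against 16.0% and 6.13% in SP libraries. The elongation zone shares were 32.5% and 15.1% in LP, against 24.3% and 12.2% in SP. It was 31.4% in lateral LP, and in lateral SP it was 0 of 3 counts, which allows a share of up to 100% with a floor of 3 counts. The LP and SP shares overlapped in both regions with replicates, and the difference of 12.4 percentage points gave p = 0.167 in a two-sided exact permutation test within regions, whose smallest possible p is 0.0278. Between the elongation zone at 21.0% and the seminal apex at 15.9% (n = 4 each) the difference of 5.11 points gave p = 0.556 in the exact permutation test within phosphorus levels, where the smallest possible p is 0.0556. This second test could not have passed 0.05, and leaving out 1 library moved its difference between 1.28 points (without elongation zone LP replicate 1) and 11.1 points (without seminal apex LP replicate 2). Adjusted over these 2 exact tests the values of p were 0.333 and 0.556.

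**Figure D2:**
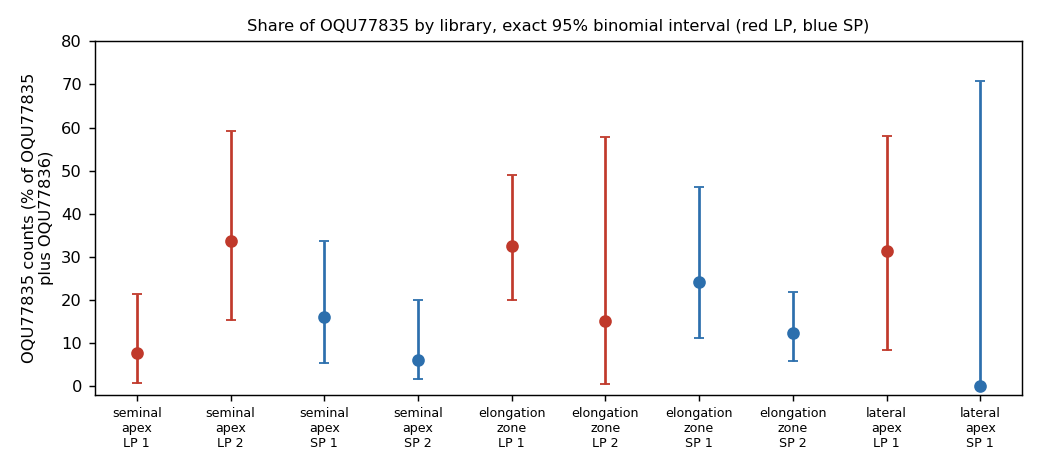
Share of the counts of SORBI_3009G110000 given to OQU77835 (y axis, percent) in each library (x axis), LP in red and SP in blue, with exact 95% binomial intervals that cover counting error only. The interval runs from 5.71% to 21.8% in elongation zone SP replicate 2 and from 0% to 70.8% in lateral apex SP, where the gene has 3 counts.

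None of the 4 transcripts was called in any comparison of LP with SP. In the seminal apex edgeR called 0 of 4 at an adjusted p under 0.05, where it called 0.218% of the 33039 transcripts tested. In the elongation zone it called 0 of 4 against 0.648%, and in the lateral apex 0 of 4 against 1.78%. In a fit over the 3 regions it called 0 of 4 against 0.409%. In each of these 4 comparisons 0 of the 4 had an unadjusted edgeR p under 0.05, against 9.41%, 14.6%, 20.5% and 11.6% of all tested. DESeq2 called 0 of 4 in each, giving no adjusted p for OQU77835, against 3.48%, 6.6%, 12% and 5.55% of all tested. In the fit over the 3 regions the log2 fold changes were -0.053 ± 1.01 (SE) for KXG32384, -0.20 ± 0.30 for OQU77834, 0.60 ± 1.05 for OQU77835 and -0.28 ± 0.68 for OQU77836, with edgeR adjusted p from 0.859 to 0.992. The SE was smallest for OQU77834, and for the other 3 changes of 0.68 to 1.05 on the log2 scale in either direction lie within 1 SE. A p that misses the threshold does not show equal levels, least of all in the lateral apex, where each group is 1 library and the SE of the 3 transcripts with counts in both libraries was 0.61 to 2.53.

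**Figure D3:**
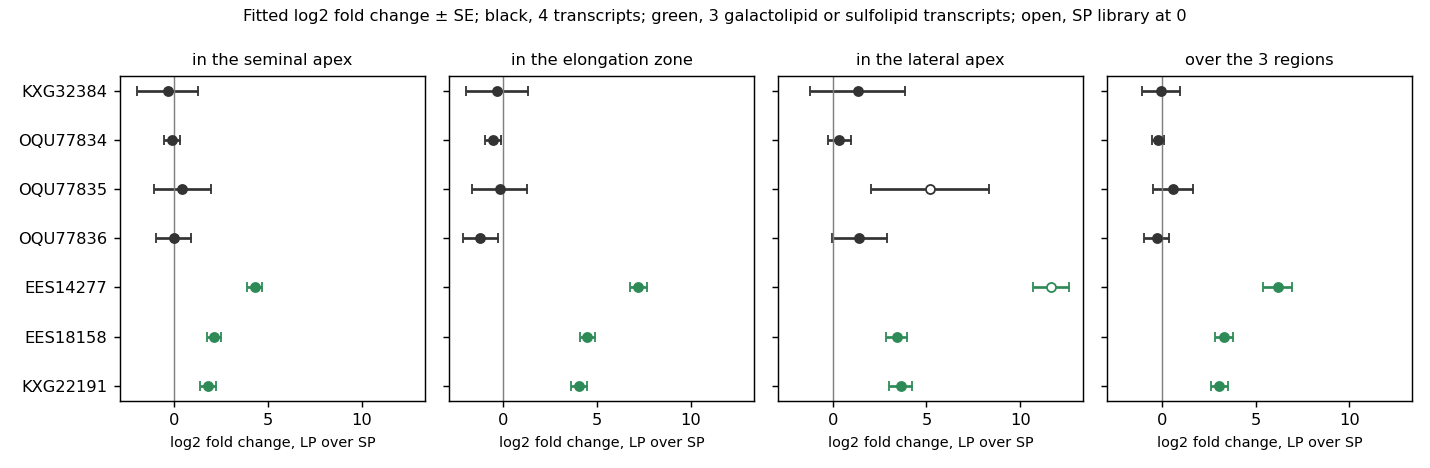
Fitted log2 fold change of LP over SP (x axis) with its SE, for the 4 phospholipase D zeta transcripts in black and 3 transcripts of galactolipid and sulfolipid synthesis in green, in each region and over the 3 regions. The fold changes of KXG32384, OQU77834 and OQU77836 lie between -1.23 and 1.43, and EES14277 lies between 4.28 and 11.64. Open points have an SP library at 0 counts, so that their fitted value depends on the prior count and is no bound.

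The sign of the fold change in LP was positive for 4 of the 4 transcripts in the lateral apex, for 1 of 4 in the seminal apex and for 0 of 4 in the elongation zone. Over all tested transcripts 51.0% were positive in the lateral apex, 48.3% in the seminal apex and 50.2% in the elongation zone. The difference between regions was tested as such. EdgeR called 0 of 4 for the lateral apex minus the elongation zone, against 0.854% of all tested, 0 of 4 for the lateral apex minus the seminal apex, against 0.505%, and 0 of 4 for the elongation zone minus the seminal apex, against 0.0121%. For each of the 3 differences 0 of 4 had an unadjusted edgeR p under 0.05, against 20.1%, 16.2% and 9.29% of all tested. DESeq2 called 0 of 4, with no adjusted p for 1 or 2 of them, against 10.2%, 6.79% and 2.85%. Largest among them was the difference of OQU77835 between the lateral apex and the elongation zone, and it rests on the 0 counts of the lateral SP library. Without elongation zone LP replicate 1 the difference of KXG32384 between the lateral apex and the elongation zone was 11.10 ± 2.17 (SE). That fit has 1 library in elongation zone LP, at 0 counts, and 1 in each lateral group, so that its value depends on the prior count, is no bound and has no replicate check.

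The 4 transcripts were next compared between regions, with LP and SP weighted equally. All 4 were lower in the lateral apex than in the seminal apex as fitted, with log2 fold changes of -2.50 ± 1.66 (SE) for KXG32384, -0.24 ± 0.38 for OQU77834, -2.61 ± 1.75 for OQU77835 and -2.11 ± 0.92 for OQU77836. The median over all tested transcripts was -0.20 for the same contrast. None passed the test. EdgeR called 0 of 4 against 10.4% of all tested, and the smallest adjusted p was 0.175, for OQU77836. Against the elongation zone the lateral apex gave -2.30 ± 1.64 for KXG32384, -0.46 ± 0.38 for OQU77834, -3.17 ± 1.78 for OQU77835 and -1.70 ± 0.91 for OQU77836, beside a median of -0.40 over all tested transcripts. Here too the value of OQU77835 depends on the 0 counts of lateral SP and is no bound. Again 0 of 4 were called, against 14.5% of all tested, with a smallest adjusted p of 0.238. Between the elongation zone and the seminal apex edgeR called 0 of 4 against 10.3%, with log2 fold changes from -0.41 to 0.56. Each of these 3 contrasts had 0 of 4 at an unadjusted edgeR p under 0.05, against 30.7%, 32.8% and 26.5% of all tested, and DESeq2 called 0 of 4 against 22.8%, 25.2% and 17.9%.

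The contrasts between regions depended on the elongation zone LP libraries, which share the estimate of the spread with all groups. The log2 fold change of KXG32384 in the lateral apex over the seminal apex was -2.49 ± 0.67 (SE) without elongation zone LP replicate 2. It was -2.52 ± 0.68 without elongation zone LP replicate 1. In the lateral apex over the elongation zone KXG32384 had -2.80 ± 0.70 without elongation zone LP replicate 2. The sum of OQU77835 and OQU77836 had -2.21 ± 0.62 in that fit. Without elongation zone LP replicate 1 KXG32384 had 2.33 ± 1.24 in the lateral apex over the elongation zone and -4.85 ± 0.98 in the elongation zone over the seminal apex. In these last values elongation zone LP is 1 library at 0 counts, so that they depend on the prior count and are no bound. Leaving out either library removes the wide spread of KXG32384 within that group from the fit. The group then keeps 1 library, so that no call is given for these fits.

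The zero of KXG32384 in elongation zone LP replicate 2 was looked at further, because OQU77834 had 108 counts in that library. KXG32384 had a whole count in no library except this one, and fractional counts arise where kallisto divides reads among transcripts. A search over all transcripts, made after the values were seen, found that KXG32383, with a length of 5944 bases and no gene named in the sources used here, adds to a whole number with KXG32384 within 0.001 in 3 of these 9 libraries. No other transcript did so in more than 2, and 1 other did so in 2. KXG32383 had 398.1 counts in elongation zone LP replicate 2 and 61.9 to 265.9 counts in the other 9 libraries, where its highest count was in elongation zone LP replicate 1.

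The share of KXG32384 in the counts of this pair was 61.0% and 22.3% in seminal apex LP libraries, against 60.3% and 59.2% in seminal apex SP libraries. Elongation zone shares were 46.0% and 0% in LP, against 51.7% and 65.5% in SP. Lateral shares were 11.7% in LP and 7.16% in SP. The pair together held 23.6 and 25.6 CPM in elongation zone LP libraries, against 9.49 and 13.6 CPM in SP libraries, and these groups did not overlap. Per length they did, since the pair, of transcripts that differ in length, summed to 8.56 and 4.82 TPM in elongation zone LP, against 3.85 and 5.54 TPM in SP. In the seminal apex it held 16.1 and 11.7 CPM in LP, against 12.6 and 14.1 CPM in SP, and in the lateral apex 17.2 CPM in LP and 11.4 CPM in SP.

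For the summed pair the log2 fold change of LP over SP was 1.09 ± 0.32 (SE) in the elongation zone, with an unadjusted edgeR p of 0.0118 and an adjusted p of 0.202 by edgeR. It was 0.056 ± 0.32 in the seminal apex and 0.60 ± 0.45 in the lateral apex, with edgeR adjusted p of 1 and 0.495, and 0.58 ± 0.27 over the 3 regions, with an adjusted p of 0.452. The sum passed the threshold in none of these comparisons. Its direction in the elongation zone differed from that of KXG32384 alone, and its SE was smaller, at 0.32 against 1.64. The sum in the lateral apex differed from the seminal apex by 0.038 ± 0.28, where KXG32384 alone gave -2.50. How far the level of KXG32384 is set by the division of reads with KXG32383 was not tested, since the files hold no reads.

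**Figure D4:**
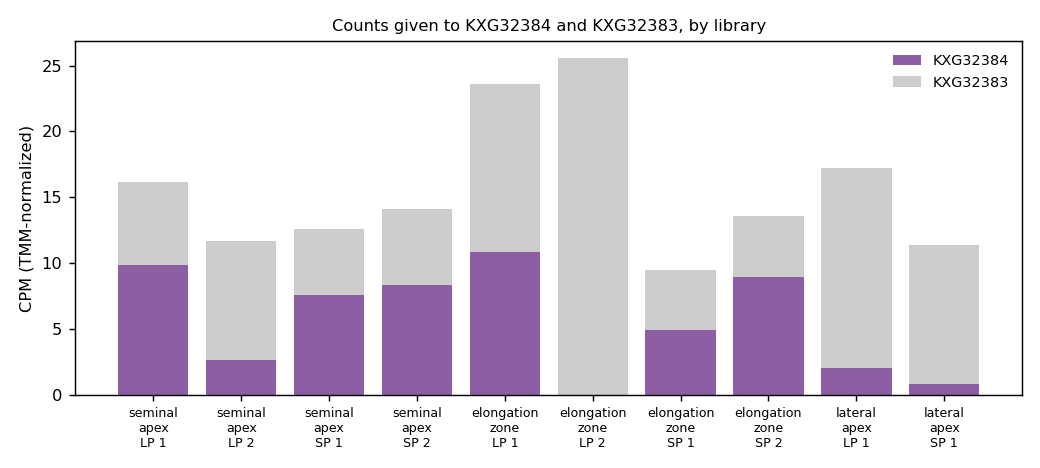
TMM-normalized CPM (y axis) of KXG32384 in purple and KXG32383 in grey, stacked, in each library (x axis). In CPM, which is not corrected for length, the sum is highest in the elongation zone LP libraries, at 23.6 and 25.6, and KXG32384 has no part of it in elongation zone LP replicate 2.

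Across the 10 libraries the log2 CPM values of the 4 transcripts were correlated with each other, from 0.579 for OQU77835 with OQU77836 to 0.860 for KXG32384 with OQU77836 (Pearson's r, as a description over libraries that share depth, region and phosphorus level). Spearman's rho was 0.273 for OQU77835 with OQU77836 and 0.806 for KXG32384 with OQU77836. The most similar profiles among 24880 transcripts with a mean of at least 1 CPM had r of 0.990, 0.984 and 0.982 with KXG32384 (EES00792, KXG27541 and OQU87014). For OQU77836 they had 0.977, 0.976 and 0.972 (EES00979, EES01101 and EER88433). For OQU77835 they had 0.960, 0.945 and 0.936 (OQU76749, OQU92103 and EES15642), at a level of counts where single reads weigh. OQU77834 was matched less closely, at 0.930, 0.925 and 0.910 (KXG24847, KXG32159 and EES12487). These transcripts were picked as the highest of many, so that the values describe likeness over 10 libraries and no more.

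The route that uses the products of phospholipid breakdown was compared through 7 transcripts of galactolipid and sulfolipid synthesis, matched to Arabidopsis AT2G11810, AT3G11670, AT4G33030 and AT3G56040. The list includes 3 transcripts that the study had selected on these samples, which are not independent evidence of its direction. In LP 1 of 7 rose in the seminal apex, 3 of 7 in the elongation zone, 3 of 7 in the lateral apex and 3 of 7 over the 3 regions, and 0 fell. Over all tested transcripts edgeR called 0.0363%, 0.415%, 1.48% and 0.176% as higher in LP in these comparisons. The transcripts that edgeR called were among those 3. DESeq2 called 3, 4, 3 and 4 of 7 in the same comparisons, each higher in LP. In either direction it called 3.48%, 6.6%, 12% and 5.55% of all tested. Outside those 3 it called EES05968 in the elongation zone (log2 fold change 1.93, DESeq2 adjusted p = 4.5e-06) and EES10780 over the 3 regions (0.89, adjusted p = 0.0297). The edgeR calls depended on which libraries were kept, and in each comparison they were lost in some fits without 1 library. Such fits leave 1 library in a group, so that no count of calls is given for them. The log2 fold changes of those 3 transcripts stayed positive in each of these fits. The list had a median log2 fold change of 0.38 in the seminal apex, 1.92 in the elongation zone, 1.72 in the lateral apex and 0.88 over the 3 regions, beside 0, 0.0060, 0.048 and 0.066 over all tested transcripts. Leaving out 1 library moved this median between 0.26 and 0.58 in the seminal apex and between 1.60 and 2.22 in the elongation zone. It stayed at 1.72 in the lateral apex and lay between 0.73 and 0.995 over the 3 regions.

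EES14277, matched to the monogalactosyldiacylglycerol synthase gene AT2G11810, had 40.8 and 42.0 CPM in elongation zone LP libraries, against 0.296 and 0.262 CPM in SP libraries. In the seminal apex it had 7.27 and 8.36 CPM in LP, against 0.527 and 0.273 CPM in SP. Lateral LP had 25.3 CPM and lateral SP 0, a rise of at least 97.9-fold if SP is set at the floor of 3 counts. The groups did not overlap in either region with replicates. Its log2 fold change was 4.28 ± 0.41 (SE) in the seminal apex and 7.18 ± 0.46 in the elongation zone, with edgeR adjusted p of 0.0311 and 0.00764. EES18158, matched to the sulfolipid gene AT4G33030, and KXG22191, matched to AT3G56040, which supplies the UDP-glucose for sulfolipid synthesis in Arabidopsis plastids, rose by 4.47 ± 0.40 and 4.02 ± 0.44 in the elongation zone, with edgeR adjusted p of 0.0153 and 0.0251. In elongation zone LP replicate 2, where KXG32384 is at 0, these 3 transcripts had 42.0, 81.3 and 36.6 CPM.

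A second list held 5 further lipid enzymes, annotated as acyltransferases, lipases and a phosphatidylinositol kinase, all of which the study had selected on these samples. EdgeR called 0 of 5 in the seminal apex, elongation zone, lateral apex and over the 3 regions, beside 0.218%, 0.648%, 1.78% and 0.409% of all tested. Without elongation zone LP replicate 1 the median log2 fold change of the 5 was 4.71 in the lateral apex and -0.82 in the elongation zone. Without elongation zone LP replicate 2 the lateral median was 4.80. EdgeR called some of the 5 in these fits, which keep 1 library of elongation zone LP, so that no count of calls is given. An unadjusted edgeR p under 0.05 was found for 1 of 5 in the seminal apex, 1 in the elongation zone, 4 in the lateral apex and 0 over the 3 regions, beside 9.41%, 14.6%, 20.5% and 11.6% of all tested. DESeq2 called 3 of 5 in the lateral apex, each higher in LP, beside 12% of all tested called in either direction. In the seminal apex, elongation zone and over the 3 regions DESeq2 called 0 of 5, beside 3.48%, 6.6% and 5.55%. It gave no adjusted p for 1 of the 5 in each region. Over the 5 the median log2 fold change came to -0.090 in the seminal apex, -0.41 in the elongation zone, 4.80 in the lateral apex and 0.26 over the 3 regions, the lateral value resting on 1 library in each group. The lateral SP library had 3 of the 5 at 0 counts, and with these set at their bound of 3 counts the lateral median was 2.34.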

How the data were processed

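The authors isolated poly-A RNA, sequenced it, used Trimmomatic for trimming and SAMtools for merging of the reads, and quantified v3.4.1 sorghum transcripts with kallisto. No source used here gives versions of these tools. The deposited files give, per transcript, estimated counts that were not normalized, and TPM values that kallisto scaled within each library. Columns of length and effective length were used only to state lengths. The bisulfite tables hold a comparison made by the authors and were not used, and ChIP-seq was not analysed here.

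Estimated counts were rounded and tested with edgeR 4.0.16 (limma 3.58.1, R 4.3.3). The filter filterByExpr by group kept 33039 transcripts, all 4 studied here among them, TMM gave the normalization, and the quasi-likelihood test took the 10 libraries as 6 groups (4 residual degrees of freedom). The comparison over the 3 regions had region and phosphorus as terms. P-values carry the Benjamini-Hochberg adjustment over the whole table, and 0.05 was the threshold. The SE was taken as the log2 fold change divided by the root of F, and the p of a low count can exceed the one this implies, since edgeR bounds it by counting error. The lateral libraries have no replicate, and their tests rest on the spread of the other regions. Intervals and floors (3 counts per library) cover counting error only. The scripts were tested on simulated data.

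Alternatives were DESeq2 1.42.0, RLE size factors, no filter, a replicate block, each library left out, the 2 libraries that stand apart left out together, the region alone, and sums of transcripts. The sum with KXG32383 was chosen after seeing the data. The named transcripts are the 4, the called members of the lipid lists, and the 3 most similar to each by Pearson's r of log2 CPM (prior count 2). The 4 transcripts and the lists were chosen with earlier results of these data known. None of the 4 matched the RefSeq gene table at hand, so that no coordinates or sequences are given.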

Additional observations from a re-analysis of the deposited data

How the results depend on the processing

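No transcript of the 4 was called under DESeq2, RLE size factors, no filter, the replicate block, the region alone, or with OQU77835 and OQU77836 summed. The region alone called 0 of the 7 galactolipid and sulfolipid transcripts in both regions with replicates, EES14277 among those not called. A missed call in that fit therefore decides little. The share of all transcripts called under these settings, other than DESeq2, is not given here. Fits without 1 library leave at most 1 library in a group, so that no count of calls is given for them. Their fold changes are given above and below. Fold changes close to 0 changed sign in places, none of them called. Leaving out 1 library also reversed larger ones. That of KXG32384 in the lateral apex against the elongation zone ran from -2.80 to 2.33. With DESeq2 the LP response of KXG32384 in the elongation zone minus the seminal apex was -0.021 and that of OQU77836 in the seminal apex 0.017, and with RLE they were -0.012 and 0.018. With the replicate block the difference of KXG32384 was -0.49 and the summed OQU77835 and OQU77836 had -0.10 in the seminal apex. The numbers share no stated litter, day or batch. Same-numbered LP and SP libraries deviated from their group means with a correlation of 0.00594 in the seminal apex and 0.135 in the elongation zone, so the block was not read further. The seminal apex and elongation zone came from the same seminal roots, and whether same-numbered libraries share plants is not stated. Between these regions the correlation was 0.227 in LP and 0.0275 in SP. Tests between regions treated these libraries as independent. With lateral apex SP and elongation zone LP replicate 2 both left out, KXG32384 had 0.70 in the elongation zone, 0.098 over the 3 regions and 0.32 in the elongation zone against the seminal apex. OQU77835 had 0.70 in the elongation zone and 0.22 for its difference from the seminal apex, and the sum of OQU77835 and OQU77836 had 0.15 in the elongation zone against the seminal apex. Of the 7 galactolipid and sulfolipid transcripts, DESeq2 called 3 higher in the seminal apex, the region alone gave 0 in the seminal apex and 0 in the elongation zone, the replicate block gave 0 in the seminal apex and 1 over the 3 regions, and leaving out both libraries gave 1 over the 3 regions. The edgeR calls were lost in some fits without 1 library, as said above. Of the 5 further lipid enzymes, DESeq2 called 3 and the fit with no filter called 1 higher in the lateral apex. These list counts were recomputed after seeing the data.

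Leaving out 1 library at a time moved the log2 fold changes of KXG32384 from -9.76 to 0.66 in the elongation zone, -1.61 to 0.31 in the seminal apex, -0.88 to 0.32 over the 3 regions, -9.40 to 1.27 for the elongation zone minus the seminal apex, 0.69 to 11.10 for the lateral apex minus the elongation zone, -4.85 to 0.43 for the elongation zone against the seminal apex, -2.80 to 2.33 for the lateral apex against the elongation zone and -2.83 to -1.87 against the seminal apex. OQU77834 ran from -0.32 to 0.082 in the seminal apex. OQU77835 ran from -2.73 to 0.66 in the elongation zone, -0.29 to 0.98 in the seminal apex, -3.15 to 0.22 for the difference of these responses and -0.66 to 0.98 between these regions. OQU77836 ran from -1.15 to 0.61 in the seminal apex, -0.69 to 0.077 over the 3 regions and -0.999 to 0.15 in the elongation zone against the seminal apex. In the elongation zone OQU77834 ran from -0.98 to -0.14 and OQU77836 from -2.53 to -0.59. The sum of OQU77835 and OQU77836 ran from -0.71 to 0.53 in the seminal apex, -0.48 to 0.29 over the 3 regions, -0.96 to 0.15 in the elongation zone against the seminal apex and -2.21 to -1.14 in the lateral apex against the elongation zone. The sum of KXG32384 and KXG32383 ran from -0.19 to 0.27 in the seminal apex and -0.070 to 0.16 in the lateral apex against the seminal apex, and stayed between 0.80 and 1.34 in the elongation zone. Other causes of these shifts were not tested. Counts of 0 to 14.6 limit what can be said of OQU77835.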
